A study of Rattus norvegicus with 2 samples.

Results

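The genes described here encode the enzymes that make prostanoids and the receptors that sense them, measured in small mesenteric arteries of the rat. They are 10 named genes: the synthesis enzymes Ptgs1, Ptgs2, Ptgis and Ptgds, and the receptors Ptgir, Tbxa2r, Ptger1, Ptger3, Ptger4 and Ptgfr. Every probe set whose single platform gene symbol was one of these was taken, which gave 17 of the 8740 probe sets on the array that are not controls, and 10 of 4736 named genes. One group of arteries came from rats made portal hypertensive before the liver by tying the portal vein partly shut, and the other from sham-operated control rats. In both groups the RNA was from the first and second branches of the vessel, pooled over 20 rats, and 1 RG_U34A array (Affymetrix) was hybridised per pool. The strain, sex and age of the rats and the time from operation to sampling are not given in the labels, and the partial ligation models obstruction of the portal vein, not disease of the liver itself. With 1 array per group no difference has a replicate error or a p-value, and the precision is limited by there being only 2 arrays.

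Prostanoids are short-lived lipids made from arachidonic acid, a fatty acid that phospholipases cut out of cell membranes. The cyclooxygenases turn it into prostaglandin H2, from which separate synthases make prostacyclin, thromboxane and the prostaglandins D2, E2 and F2 alpha. In arteries, prostacyclin relaxes smooth muscle through a receptor that raises cyclic AMP, while thromboxane and prostaglandin F2 alpha contract it through receptors that raise calcium. Prostacyclin is one of the vasodilators long studied in the dilated gut circulation of portal hypertension. The comparison therefore asked how the mRNAs of the dilator and constrictor arms of this pathway stood in the portal hypertensive pool against the sham pool.

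The 2 cyclooxygenase genes are the classic contrast of this family, since Ptgs1 is the constitutive form and Ptgs2 the inducible one, and the DNA around their starts is shown for that reason. Each window runs from 250 bases before to 50 bases after the RefSeq gene start on the rat assembly GRCr8, 5′ to 3′ on the gene's strand, which is the + strand for both. Capitals mark matches, on either strand, to any of 5 motifs: the GC box GGGCGG, the E box CACGTG, the C/EBP site TTNNGCAAT, the TATA box TATAAA and the cyclic AMP response element TGACGTCA.
Ptgs1, chr3:39981169-39981468: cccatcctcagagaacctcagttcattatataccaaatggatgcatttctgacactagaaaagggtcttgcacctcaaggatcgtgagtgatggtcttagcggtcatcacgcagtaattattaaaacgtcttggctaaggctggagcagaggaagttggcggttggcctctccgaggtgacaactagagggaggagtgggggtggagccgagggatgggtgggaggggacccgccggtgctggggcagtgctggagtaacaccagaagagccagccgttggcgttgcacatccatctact
Ptgs2, chr13:64713813-64714112: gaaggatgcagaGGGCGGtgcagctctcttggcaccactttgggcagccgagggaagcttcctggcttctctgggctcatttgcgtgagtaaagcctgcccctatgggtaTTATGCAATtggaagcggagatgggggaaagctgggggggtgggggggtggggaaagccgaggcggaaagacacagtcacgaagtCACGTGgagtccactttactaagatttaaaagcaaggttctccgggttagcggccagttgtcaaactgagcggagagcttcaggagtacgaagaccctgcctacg
The Ptgs2 window held 1 GC box, 1 C/EBP site starting 140 bases before the start and 1 E box starting 55 bases before it, while none of these letters occurred in the Ptgs1 window. Of 33469 windows of the same length, 33.1% held the GC box, 6.42% the E box, 2.33% the C/EBP site, 14.2% the TATA box and 1.83% the cyclic AMP response element. These matches describe the sequence only. The motifs were picked as known elements of Ptgs2 regulation, and the arrays say nothing of their use.

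Of the 17 probe sets, 7 gave a signal above the floor in both pools, 1 each for Ptgs1, Ptgs2, Ptgis, Ptgir, Tbxa2r, Ptger3 and Ptgfr. The floor was 330.9 intensity units, the 40th percentile of all values on both arrays, and stood in for detection calls. The other 10 probe sets lay below it in both pools, so Ptger1, Ptger4 and Ptgds had no ratio. No prostanoid gene differed by 1.5-fold or more: 0 of the 7 with a value were higher and 0 lower, against 3.13% of all 3351 genes with a value that were higher by that much and 5.04% that were lower. The all-gene counts behind these shares were 105 higher and 169 lower, and after quantile normalization 151 higher and 139 lower. By direction, 5 of the 7 genes had log2 ratios of portal hypertension over sham below 0 and 2 above it, where 53.2% of all genes lay below 0. The median was -0.18, against -0.02 over all genes with a value. Probe sets of 1 gene scattered around their gene's mean with an SD of 0.30 on this log2 scale (1801 probe sets of 789 genes), so 4 of the 7 ratios were smaller than, and 1 was at, the disagreement between probe sets for the same mRNA.

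The pools also differed in markers of fat cells, which surround these vessels. Of 8 adipocyte genes 6 had a value, 5 of them above 0, with a median log2 ratio of 0.42 and a summed signal of 139206 in the portal hypertension pool and 100722 in the sham pool. Lep went the other way, at -0.21, and Adipoq and Plin1 had no value. A single probe set of Scd, a fatty acid enzyme, gave 29482 of the portal hypertension sum and 11225 of the sham sum. The part of fat tissue in the prostanoid values was not tested.

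**Figure D1:**
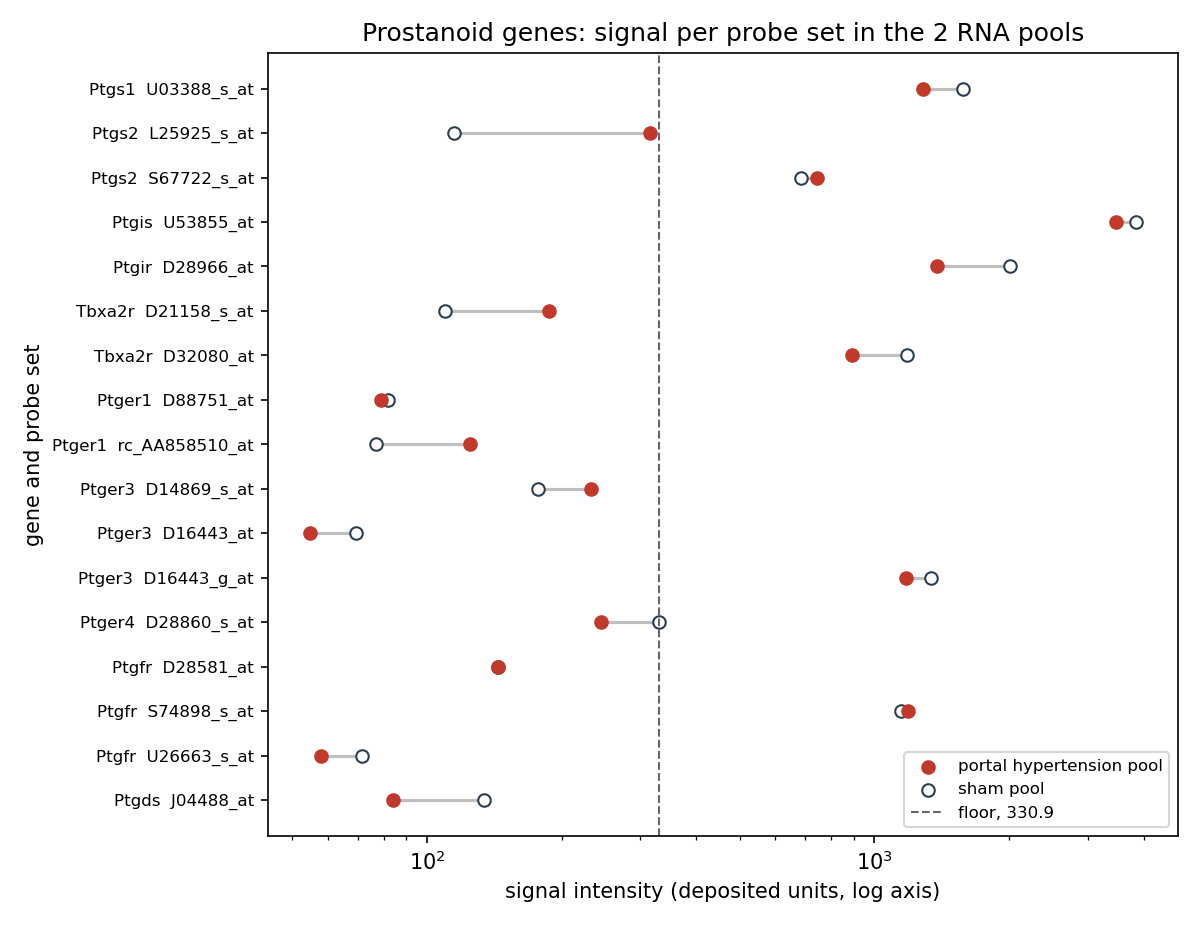
Signal intensity (log axis) of each of the 17 probe sets of the 10 prostanoid genes in the portal hypertension pool (filled red) and the sham pool (open), with a grey line joining the 2 values. The dashed line is the floor at 330.9. Ptgir lay further left in the portal hypertension pool, at 1378 against 2008 in the sham pool, and 10 probe sets lay left of the floor in both pools.

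Among the synthesis enzymes, Ptgs1 was slightly lower and Ptgs2 near its sham level on the probe set that could be read. Ptgs1, the constitutive cyclooxygenase, which is also the form in platelets, had a signal of 1281 in the portal hypertension pool and 1578 in the sham pool on its single probe set (U03388_s_at). That is a log2 ratio of -0.30, at the size of the within-gene scatter, and 18.0% of all measured probe sets had a lower one. Ptgs2, the cyclooxygenase induced by growth factors and inflammation, had 745 in the portal hypertension pool and 687 in the sham pool on S67722_s_at, a log2 ratio of 0.12.

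The other Ptgs2 probe set, L25925_s_at, lay under the floor in both pools and gave 315 in the portal hypertension pool and 115 in the sham pool. Both Ptgs2 probe sets thus gave more signal in the portal hypertension pool. The measured ratio was smaller than the within-gene scatter of 0.30, and the other probe set was not above the floor. Neither the direction nor the size of a difference was settled. Once the floor was lowered to the 20th percentile or removed, the dimmer probe set entered as well, and the gene's log2 ratio became 0.79, past 1.5-fold. Its portal hypertension signal was 15.6 units under the floor of the main setting.

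Prostacyclin synthase, Ptgis, the enzyme that makes prostacyclin from prostaglandin H2, differed little. Its probe set U53855_at had 3468 in the portal hypertension pool and 3846 in the sham pool, a log2 ratio of -0.15. Prostacyclin is made mainly in endothelium, whose markers had a value for 5 of 11 genes, 4 of them below 0, with a median log2 ratio of -0.10. Icam2 at -1.13 and Nos3 at -0.78 were at least 1.5-fold lower and Edn1 at 0.62 at least 1.5-fold higher. Of all genes with a value, 5.04% were lower and 3.13% higher by that much. The 3 measured probe sets of Nos3 disagreed in direction, at -0.78, -1.20 and 0.25. The endothelial list had a summed signal of 10777 in the portal hypertension pool and 12072 in the sham pool. The part of these markers in the Ptgis value was not tested. Ptgds, the lipocalin-type prostaglandin D synthase, known from brain coverings and other tissues, had 84.0 in the portal hypertension pool and 134 in the sham pool on J04488_at. Both values lay below the floor, so no fold is given.

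The prostacyclin receptor gene had the lowest ratio of the 7. Ptgir, whose receptor couples to Gs and raises cyclic AMP, gave 1378 in the portal hypertension pool and 2008 in the sham pool on D28966_at. This is 1.46-fold lower, a log2 ratio of -0.54, just inside the 1.5-fold line, which lies at 0.58 on either side of 0. Of all 4960 measured probe sets 6.43% had a lower ratio, and of the 2014 with a mean level within 2-fold of that of Ptgir 7.05% did. Over the other members with a value, the first share ran from 12.0% for Tbxa2r to 69.3% for Ptgs2. Since Ptgir is the lowest of 7 values, a low share for it follows partly from that choice. Ptgir has 1 probe set, which lay above every floor used, so most of the alternative settings could not change its ratio. The settings that could were quantile normalization, which gave -0.51, and the loess trend, which gave -0.52. In RNA from whole vessels, fewer cells that carry a gene and less of its RNA per cell cannot be told apart.

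Markers of smooth muscle, the main cell type known to carry Ptgir in the artery wall, were measured beside it. Of 8 listed smooth muscle genes 7 were on the array and all 7 had a value, 5 below 0 and 2 above, with a median log2 ratio of -0.10. Their summed signal was 641141 in the portal hypertension pool and 655629 in the sham pool. Acta2, the smooth muscle actin gene, had -0.32, while Tagln had 0.17. Kcnmb1, a potassium channel subunit, had -0.68 and was the 1 gene of the 7 at least 1.5-fold lower, against 5.04% of all genes. Its probe sets differed, at -1.04 and -0.33. The part of the smooth muscle markers in the Ptgir value was not tested.

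**Figure D2:**
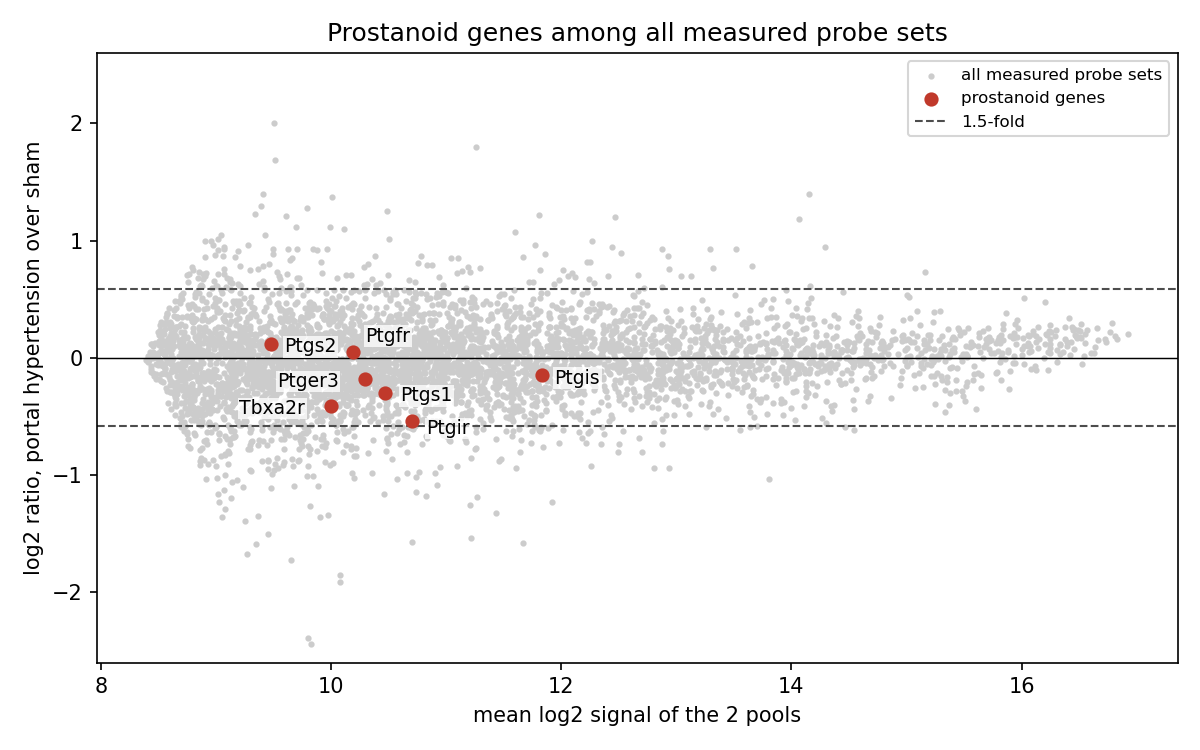
Log2 ratio of portal hypertension over sham (vertical) against the mean log2 signal of both pools (horizontal) for the 4960 measured probe sets (grey), with those of the 7 measured prostanoid genes in red and named. Dashed lines mark 1.5-fold. All 7 lie between the dashed lines, from -0.54 for Ptgir to 0.12 for Ptgs2.

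The thromboxane receptor gene was also lower on its brighter probe set. Tbxa2r, whose receptor contracts smooth muscle and activates platelets, had 890 in the portal hypertension pool and 1180 in the sham pool on D32080_at, a log2 ratio of -0.41. Of all measured probe sets 12.0% had a lower ratio. Its other probe set, D21158_s_at, lay under the floor and leaned the opposite way, with 187 in the portal hypertension pool and 110 in the sham pool. Once the floor was lowered in the same way or removed, the gene's log2 ratio turned to 0.18, so the direction for Tbxa2r rests on leaving out the dim probe set.

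Of the 3 prostaglandin E2 receptor genes, Ptger3 alone had a measured probe set. Ptger3, whose EP3 receptor couples mainly to Gi and lowers cyclic AMP, had 1179 in the portal hypertension pool and 1335 in the sham pool on D16443_g_at, a log2 ratio of -0.18. The remaining Ptger3 probe sets stayed below the floor, D14869_s_at with 233 in the portal hypertension pool and 177 in the sham pool, and D16443_at with 54.7 and 69.3 in the same pools. Lowering the floor to the 20th percentile turned the log2 ratio of Ptger3 to 0.11, while with no floor it was -0.18 again.

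Ptger4, whose EP4 receptor raises cyclic AMP and relaxes vessels, had 245 in the portal hypertension pool and 330.8 in the sham pool on D28860_s_at. The sham value lay 0.1 under the floor, so the gene had no ratio at the main setting and a log2 ratio of -0.44 once the floor was lowered to the 20th percentile. Ptger1, whose EP1 receptor raises calcium, was far below the floor on both probe sets. It had 78.8 in the portal hypertension pool and 82.0 in the sham pool on D88751_at, and 125 and 77.1 in the same pools on rc_AA858510_at.

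The prostaglandin F2 alpha receptor gene was alike in both pools. Ptgfr, whose receptor raises calcium and contracts smooth muscle, had 1189 in the portal hypertension pool and 1149 in the sham pool on S74898_s_at, a log2 ratio of 0.05. D28581_at gave 143.8 in the portal hypertension pool and 144 in the sham pool, and U26663_s_at gave 58.0 and 71.7, all below the floor. With no floor the log2 ratio of the gene was -0.002.

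Set side by side, the prostacyclin arm and the contracting arm both had mean ratios below 0 at the main setting. The arms are unlike in kind, since the first joins a synthase and a receptor and the other holds receptors only. The relaxing receptor gene Ptger4 and the thromboxane synthase gene Tbxas1 are in neither. The mean log2 ratio was -0.35 for the prostacyclin arm (Ptgis and Ptgir) and -0.18 for the receptors that contract smooth muscle (Tbxa2r, Ptger3 and Ptgfr, the members of that arm with a value). The difference of -0.17 has no error of its own, with 1 array per group, and was -0.48 under the 20th percentile floor and -0.43 with no floor. Under the 20th percentile floor every contracting member lay above 0, Tbxa2r at 0.18, Ptger1 at 0.23, Ptger3 at 0.11 and Ptgfr at 0.02. The direction of the contracting arm thus depended on the floor. Between the receptors alone, the log2 ratio of Ptgir was 0.14 below that of Tbxa2r. Within the prostacyclin arm the synthase and the receptor differed more, by 0.39, and between the cyclooxygenases the log2 ratio of Ptgs1 was 0.42 below that of Ptgs2. Of the 7 measured probe sets, those of Ptgs1, Ptgs2, Ptger3 and Ptgfr carry a suffix of the platform for shared or incomplete probes. Without such probe sets the 3 genes left were Ptgis, Ptgir and Tbxa2r, with a median of -0.41, and the difference between the arms became 0.06.

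Upstream of the cyclooxygenases, the listed genes around the release of arachidonic acid went different ways. The list also holds genes that do not themselves release it, so its counts are not those of releasing enzymes alone. Of 17 listed genes 10 were on the array and 7 had a value, 5 with a ratio below 0 and 2 above. The median log2 ratio was -0.01. Of the 7 genes, 1 was at least 1.5-fold lower, against 5.04% of all genes with a value. Pla2g4a, the cytosolic phospholipase A2 that chiefly supplies the cyclooxygenases, had 6248 in the portal hypertension pool and 6303 in the sham pool, a log2 ratio of -0.01. Pla2g2a, a secreted phospholipase A2, had 10861 in the portal hypertension pool and 14963 in the sham pool, a log2 ratio of -0.46.

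Pla2g6, the calcium-independent phospholipase A2, was the 1 gene past 1.5-fold. It gave 265, below the floor, in the portal hypertension pool and 657 in the sham pool, which is at least 1.99-fold lower. It had no value under the 60th percentile floor or with only probe sets above the floor on both arrays. Pla2g2c, another secreted form, had a log2 ratio of 0.20.

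The other synthases included the 1 gene of thromboxane synthesis, which was higher. Tbxas1, thromboxane synthase, gave 510 in the portal hypertension pool and 260, below the floor, in the sham pool, so it was at least 1.54-fold higher. Its log2 ratio was 0.97 with no floor. The gene had no value under the 60th percentile floor, with only probe sets above the floor on both arrays, or without shared or incomplete probe sets. Tbxas1 is known from platelets and macrophages, and markers of both were read beside it.

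The platelet markers with a value, Pf4, Itga2b and Selp, had log2 ratios of -0.07, -0.31 and 0.17. The summed signal of the platelet list, with 3 of its 6 genes on the array, was 22435 in the portal hypertension pool and 23518 in the sham pool. Of the 7 macrophage markers 5 were on the array and 4 had a value, 3 of them above 0, Fcgr2b at 0.92, Ctss at 0.50 and Aif1 at 0.46, while Cd14 had -0.14. The summed macrophage signal was 28126 in the portal hypertension pool and 21353 in the sham pool, and its part in the Tbxas1 value was not tested.

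Of the 7 other synthases listed 4 had a value, 3 above 0 and 1 below, with a median log2 ratio of 0.19. Cbr1, a carbonyl reductase that can convert prostaglandin E2 to F2 alpha, had log2 ratios of 0.14 and 0.53 on its probe sets. Hpgds, the prostaglandin D synthase of mast cells and other blood-derived cells, had 0.31 and -0.42 on its probe sets, so its direction was not settled. Of 6 mast cell markers 5 had a value, 4 of them above 0. Of these 5 markers 2 were at least 1.5-fold higher, against 3.13% of all genes with a value. Only 4 of the 8 mast cell probe sets were above the floor in both pools, so at least 1 of these values is a limit. The summed mast cell signal was 18430 in the portal hypertension pool and 11156 in the sham pool, and its part in the Hpgds values was not tested. The genes of the prostaglandin E synthases had no value.

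Of 6 listed genes that end prostanoid signals 2 had a value, and 0 reached 1.5-fold. Slco2a1, the transporter that takes prostaglandins into cells for breakdown, had 1379 in the portal hypertension pool and 995 in the sham pool, a log2 ratio of 0.47. Ptgr1, a reductase that acts on prostaglandin breakdown products and leukotriene B4, had 0.19. Hpgd, the dehydrogenase that starts prostaglandin breakdown, gave 299 in the portal hypertension pool and 281 in the sham pool, both below the floor.

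Among the other receptors and their partners, Ptgfrn was the 1 gene of 4 with a value. It encodes a membrane protein that binds the prostaglandin F2 alpha receptor, and had log2 ratios of 0.34 and 0.29 on its probe sets. The relaxing prostaglandin E2 receptor Ptger2 gave 41.8 in the portal hypertension pool and 34.2 in the sham pool, both below the floor.

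**Figure D3:**
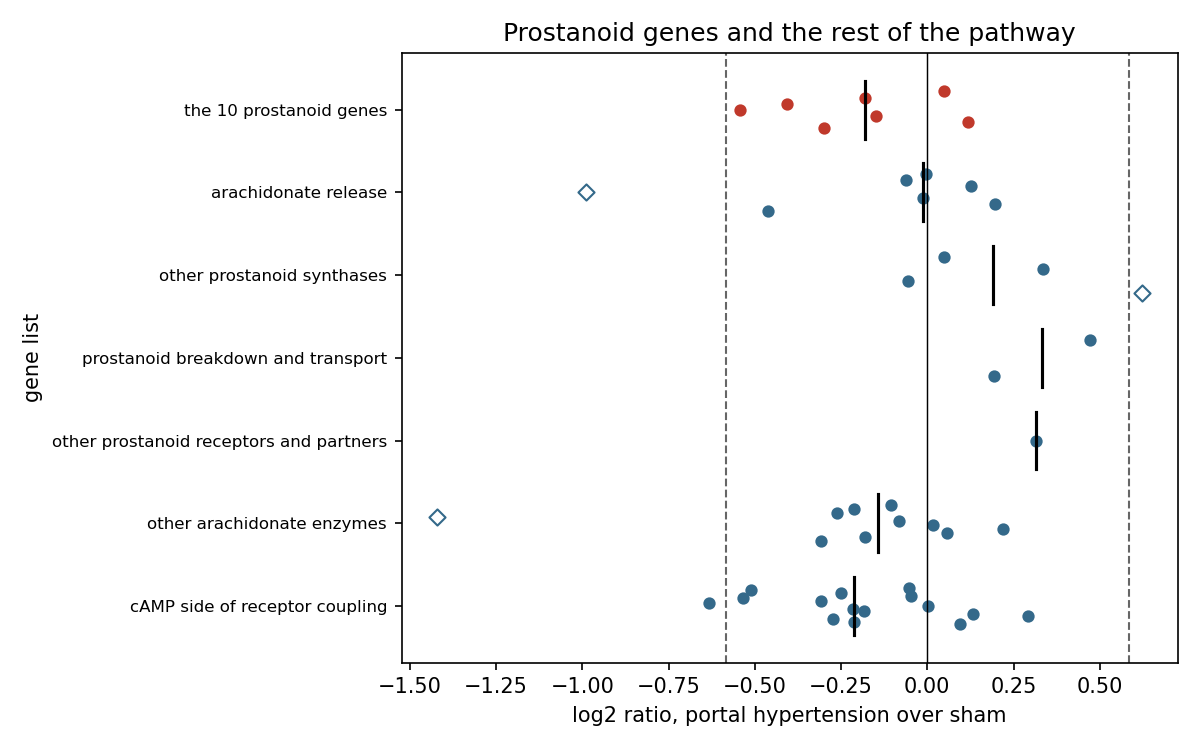
Log2 ratio of portal hypertension over sham (horizontal) for each gene with a value in the prostanoid set (red) and in 6 further lists of the pathway (blue). Open diamonds are genes above the floor in 1 pool only, whose value is a limit, vertical black bars are list medians, and dashed lines mark 1.5-fold. The prostanoid genes lie between -0.54 and 0.12 and the list of the cyclic AMP side has a median of -0.21.

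Downstream of the receptors, 15 of 18 listed genes of the cyclic AMP side had a value. Among them 1 was at least 1.5-fold lower and 0 higher, against 5.04% and 3.13% of all genes with a value. The ratios of the 15 genes were below 0 for 11 and above 0 for 4, where 53.2% of all genes lay below 0. Their median log2 ratio was -0.21. The list mixes adenylyl cyclases with phosphodiesterases, which break down cyclic AMP. Its counts and median therefore give no direction for the signalling itself. The regulatory subunits of protein kinase A Prkar1b and Prkar2b had log2 ratios of -0.63 and -0.53, and Pde4a, a phosphodiesterase that breaks down cyclic AMP, had -0.51. Gnas, which encodes the G protein subunit that couples the prostacyclin receptor to adenylyl cyclase, had 0.10 over 4 probe sets.

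Genes that take arachidonic acid along other routes had 10 of 18 with a value, 7 below 0 and 3 above, with a median of -0.14 and 1 at least 1.5-fold lower. That was Cyp2c11, a cytochrome P450 that can make vasoactive epoxides, at least 2.68-fold lower on 1 probe set with its other 2 below the floor, and with no value under the same 3 settings as Tbxas1. Alox5ap, the partner of 5-lipoxygenase in leukotriene synthesis, had 0.08 and -0.70 on its probe sets. Cyp2c23, another cytochrome P450, had -0.11 on its measured probe set and was at least 1.33-fold lower on another. These lists were counted against the same 3.13% of all genes that were 1.5-fold higher and 5.04% that were lower.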

How the data were processed

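Total RNA of 1 pool of 20 rats per group was read on 1 array each. The table deposited by the authors gives a linear intensity for each probe set, already scaled (means without the lowest and highest 2% were 2504.4 in the portal hypertension pool and 2504.3 in the sham pool). Its software, scaling target and background correction are not stated in the labels or headers used here. Per the file headers, which record chip, fluidics and scanner settings, the labelled cRNA was 12.5 µg for the portal hypertension array and 17 µg for the sham array, both queried in the record, and the fluidics module was 1 and 2. These cannot be told apart from the operation.

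Values under the 40th percentile were set to it, log2 was taken, and a gene's value was the median log2 ratio over its probe sets above this floor on at least 1 array. Of 8799 probe sets, 59 controls were left out, 7018 carried a single gene symbol, 308 more than 1 and 1473 no symbol, and a RefSeq table of GRCr8 changed 0 symbols. Promoter windows came from RefSeq, and 9 of the 10 genes matched. Genes were counted at 1.5-fold, with no test. The steps were tested on simulated data, with Python 3.11.15, numpy 2.4.6, pandas 2.3.3 and statsmodels 0.14.6. The simulation had less scatter between probe sets than these arrays and changes larger than 1.5-fold. It did not score values that are limits, so it checks the code and not the reliability of the calls. Alternatives were quantile normalization, a loess trend removed, floors at the 20th and 60th percentile, no floor, the probe set of highest level, only probe sets above the floor on both arrays, and shared or incomplete probe sets left out. One list of receptor coupling genes is not reported here. Named from the other lists were genes past 1.5-fold and the 3 with the largest absolute ratio. Also named, outside this rule and after values were seen, were Pla2g4a, Hpgd, Ptger2 and Gnas, and the markers given by name. The members and lists were chosen with earlier results of these data known.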

Additional observations from a re-analysis of the deposited data

How the results depend on the processing

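The count of prostanoid genes at least 1.5-fold higher was 0 at the main setting and 1 (Ptgs2) once the floor was lowered to the 20th percentile or removed. The count at least 1.5-fold lower was 0, and 1 with no floor, where Ptgds, which had no value at the main setting and -0.33 under the 20th percentile floor, had a log2 ratio of -0.67. The median ratio of the genes was below 0 under all 8 alternatives, from -0.41 to -0.06. The difference between the prostacyclin arm and the contracting arms was -0.17, moved to -0.48 under the 20th percentile floor and changed sign, to 0.06, without shared or incomplete probe sets, where Tbxa2r was the only contracting member left. Fewer or more probe sets enter by construction under these settings. Ptgs1, Ptgis and Ptgir, all lower, kept their direction wherever they had a value. Ptgs1, Ptgis and Ptgir have 1 probe set each, above every floor used. Only quantile normalization and the loess trend could change the ratios of these genes. Ptgs2 stayed above 0 wherever it had a value. The settings of highest level and of both arrays reuse its 1 measured probe set, at 0.12, so they could not change it. Its value of 0.79 came from adding the probe set below the main floor. Over all genes, the counts of 105 higher and 169 lower became 300 and 334 under the 20th percentile floor, 45 and 64 under the 60th, and 455 and 487 with no floor. No paired analysis was possible because each group has 1 array. Low signal limits Ptger1, Ptger4 and Ptgds, which had no probe set above the main floor.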
